A study of Mus musculus with 55 samples.

Results

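The genes described here are the protein-coding potassium channel genes of the mouse, chosen by a symbol that begins with Kcn and by a level over 1 CPM (reads of the gene scaled to the size of the library) in at least 10 of 55 libraries. Of 93 such genes in the count table, 73 passed the level filter and were tested among 16168 genes, and 20 were below it. The genes closest to the filter on its inner side were Kcnh4, over 1 CPM in 10 libraries, and Kcnmb1, over 1 CPM in 11 libraries. On its outer side the closest was Kcne3, over 1 CPM in 5 libraries. Together the 73 genes took between 0.218 and 0.314% of the reads of a library. They were read in the dorsal hippocampus of 55 mice, and the question put to them was whether their mRNA differed between stages of the estrous cycle, between the sexes, and between mice with and without Cnih3, an auxiliary subunit of AMPA receptors.

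Potassium channels carry the outward current that repolarizes neurons, sets their resting potential and spaces their spikes. The voltage-gated families (Kcna, Kcnb, Kcnc, Kcnd, Kcnq and Kcnh) open on depolarization, with silent subunits (Kcnf, Kcng, Kcns, Kcnv) that only work when joined to Kcnb subunits and with cytoplasmic or single-pass partners (Kcnab, Kcnip, Kcne) that change gating and transport. Calcium- or sodium-activated channels (Kcnma, Kcnn, Kcnt) shape the afterhyperpolarization, inward rectifiers (Kcnj) hold the resting potential, carry the current opened by G protein-coupled receptors and clear potassium in glia, and tandem-pore channels (Kcnk) give the background leak. In hippocampal pyramidal cells, Kcnd2 forms the dendritic A-type current and Kcnq3 takes part in the M current, and in fast-spiking interneurons Kcnc genes let the cell fire at high rates.

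Each library came from a single mouse on a C57BL/6J background. There were 5 WT males and 22 WT females, of which 7 were in estrus, 6 in diestrus, 5 in proestrus and 4 in metestrus. KO mice, which lack Cnih3 in every cell of the body, were 7 males and 21 females, with 6 each in estrus and diestrus, 5 in metestrus and 4 in proestrus. Stage was read from vaginal cytology, so that each female was sampled in a single stage and no mouse was followed through a cycle. Ages ran from 10.86 to 23.71 weeks. Some WT mice came from matings within the B6 colony and the others, like the KO mice, from matings with the Cnih3 line. Levels are log2 CPM after TMM scaling, on which a step of 1 is a doubling, and differences are log2 fold changes from limma with their standard error (SE) and a false discovery rate (FDR) adjusted over all 16168 genes. A gene was called at an FDR under 0.05. Cnih3 itself was lower in KO than in WT mice by a log2 fold change of -0.34 ± 0.08 (FDR = 0.00692), while its levels overlapped, from 4.43 to 5.97 in WT and from 4.43 to 5.58 in KO libraries. The deletion removes a single exon and the counts cover the whole gene, so that this is a weak check of genotype.

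Total reads counted on genes ran from 25881295 to 63547098 per library, with a median of 53384170. The markers of the hippocampal fields were present in every library, with mean levels of 5.15 to 6.28 for dentate granule cells, 5.19 to 6.32 for CA1 and 4.77 to 5.91 for CA3 pyramidal cells. Genes of choroid plexus, which borders the hippocampus, ranged from -0.84 to 4.68 in mean level, and those of pituitary, of which 3 of 4 were measured, from -0.67 to 5.86. The tissue is a mixture of cells, and fewer cells of a type cannot be told apart from less RNA per cell.

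A set of 7 diestrus libraries stood apart from the other 48, and most calls below depend on them. They are the diestrus mice under 14 weeks of age, 3 WT and 4 KO, and they are the only 7 mice with numbers between 532 and 645. Their mean level of 7 nuclear-retained RNAs (Malat1, Meg3, Neat1, Snhg11, Miat, Rian and Kcnq1ot1) ran from 5.11 to 5.83, with a median of 5.50, against 5.74 to 7.61, with a median of 7.18, in the 48 others. Of these 7 RNAs, 5 were called lower in diestrus than in estrus in each genotype, Malat1 by -1.86 ± 0.32 (FDR = 0.00040) in WT and by -2 ± 0.30 (FDR = 1.06e-05) in KO mice, and Rian and Kcnq1ot1 were not. RNA was taken from the supernatant of a detergent lysate after a spin. The 12 markers of mature oligodendrocytes were also lower in these libraries, with a mean of 6.43 to 6.88 against 7.17 to 7.48 in the older WT and 6.82 to 7.35 in the older KO diestrus mice. Markers of CA1 pyramidal cells had a mean of 5.19 to 5.69 in the younger and 5.89 to 6.05 in the older WT diestrus mice, and 5.45 to 5.83 against 6.02 to 6.11 in KO mice, and 3 of these 4 markers were called lower in diestrus than in estrus in each genotype. Those of oligodendrocyte precursors had 1.69 to 1.91 against 2.18 to 2.68 in WT and 1.88 to 2.24 against 2.53 to 2.7 in KO mice. Those of dentate granule cells had 5.15 to 5.54 against 5.78 to 6.17 in WT mice and overlapped in KO mice, at 5.15 to 5.68 against 5.64 to 5.72. Those of CA3 pyramidal cells had 5.21 to 5.42 against 5.72 to 5.82 in WT mice and overlapped in KO mice. Astrocyte markers went the other way in WT mice, with 7.30 to 7.46 against 7.19 to 7.25, and overlapped in KO mice. So did 9 mitochondrial mRNAs, with 10.01 to 10.37 against 9.41 to 9.89 in WT mice. The part of these markers in the results was not tested. Counts of called genes in diestrus are therefore given with all diestrus mice and with only those of 14 weeks or more. Of the latter there were 3 WT and 2 KO. For single called genes the older mice alone are given where they turn the sign. Where no such value is given, a called difference may still shrink to near 0, and one not called may turn. With the older mice alone, Kcng1 had -0.03 against estrus in WT and -0.05 in KO mice. Kcna6, which was not called in KO mice, had 0.14 there. Age and cohort cannot be told apart within diestrus, and the part of nuclear RNA in these results is given below only as values that moved with them.

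The fit also gave each library a weight by how well it followed its group, which bears on the same libraries. The younger KO diestrus mice had weights of 1.61 to 1.74 and the 2 older ones 0.433 and 0.509. In WT diestrus the younger mice had weights of 0.763 to 1.14 and the older ones 0.327, 0.494 and 0.935. The fitted differences therefore lean on the younger diestrus mice and differ from plain differences of group means.

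Per kilobase of exon, the channel mRNAs spanned a wide range of levels. The highest was Kcnab2, a cytoplasmic beta subunit, at 6.86 log2 CPM per kb as a mean over all libraries. It was followed by Kcnip2, a calcium-binding partner of Kcnd channels, at 5.46, by Kcnk1, a tandem-pore channel, at 5.08 and by Kcnip4 at 5.05. Among pore-forming voltage-gated subunits Kcnd2 was highest with 4.67, ahead of Kcna1 with 3.97. Auxiliary subunits thus took 3 of the first 4 ranks on this scale. At the other end, Kcnmb1 and Kcnh4 had -2.67 and -2.46 log2 CPM per kb.

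Among the 4 stages, the F test called 34 of 73 channel genes in WT mice, against 31.5% of all genes tested, and 38 of 73 in KO mice, against 36.7% of all genes. The called channel genes were lowest in diestrus more often than called genes at large. In WT mice, 32 of the 34, or 94.1%, had their lowest stage mean in diestrus, against 47.1% of the 5086 genes called, and 19 had their highest mean in estrus and 12 in proestrus. In KO mice, 30 of the 38, or 78.9%, were lowest in diestrus, against 49.2% of the 5934 genes called, and 18 were highest in proestrus and 12 in estrus. The WT and KO lists share no mice, but they come from the same fit, and both lean on the younger diestrus mice. On both were 28 genes, which is 82.4% of the WT and 73.7% of the KO list, and the overlap over all genes is not given here. The smallest FDR in both genotypes was that of Kcnk13, a tandem-pore channel known from microglia, with 0.000214 in WT and 1.47e-05 in KO mice. With only the diestrus mice of 14 weeks or more, limma called 1 channel gene among the WT stages and 0 among the KO stages. Of all genes 2.33 and 0.0619% were called, and 17 and 12 channel genes had an unadjusted p under 0.05. With all diestrus mice edgeR called 0 in both genotypes, with 17 and 16 at an unadjusted p under 0.05, and DESeq2 called 1 and 3. Of all genes edgeR called 0.0247 and 0.334%, and DESeq2 0.532 and 3.54%.

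No channel gene was called for a stage difference that changed with genotype, where 0% of all genes were called. An unadjusted p under 0.05 was found for 4 of the 73, beside 1973 of the 16168 genes tested. The smallest p was that of Kcnk13, with 0.00928 (FDR = 0.278), followed by Kcnab2, Kcnma1 and Kcnd2. edgeR and DESeq2 also called 0. Leaving out WT diestrus mouse 548 or mouse 549 gave 1 call each, with 1.63 and 1.05% of all genes called.

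Diestrus against estrus was the stage pair with most calls among the WT channel genes. In WT mice 31 of 73 were called, 29 lower and 2 higher in diestrus, while 22.1% of all genes were called, 13.1% lower and 9.05% higher. In KO mice 32 were called, 27 lower and 5 higher, while 30.7% of all genes were called, 19.3% lower and 11.3% higher. The median log2 fold change of the 73 was -0.311 in WT and -0.303 in KO mice, against -0.00868 and -0.0147 over all genes. In WT mice 55 of the 73 had a negative value, or 75.3% against 51.0% of all genes, and in KO mice 51 did, or 69.9% against 51.3%. The genotypes share 25 of these calls, or 80.6% of the WT and 78.1% of the KO calls, all 25 with the same sign. The paper reports that, over all genes, differences called in both genotypes nearly always had the same direction. The shared sign is therefore not particular to the channel genes, and the overlap over all genes is not given here. Of the 25 shared calls, 24 were lower in diestrus in both genotypes and 1, Kcnip4, was higher in both.

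**Figure D1:**
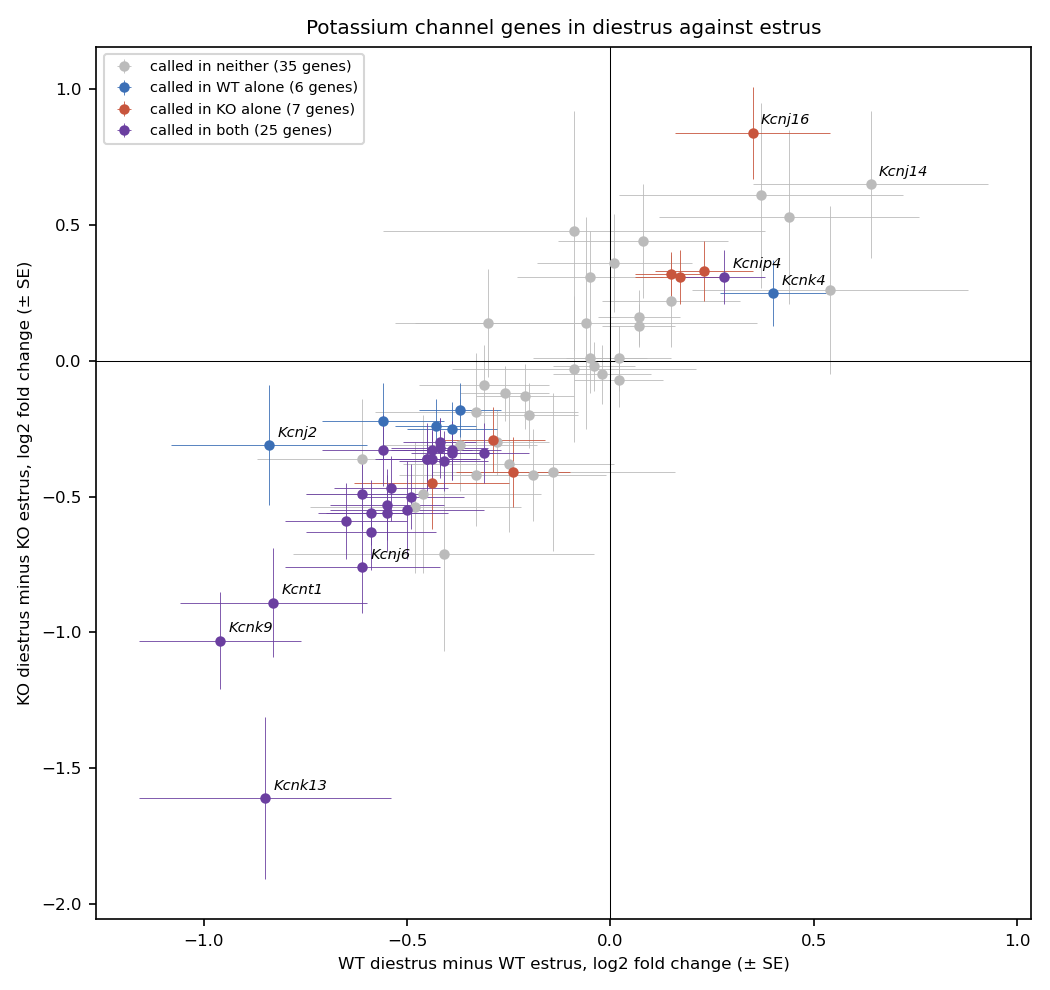
Log2 fold change of diestrus against estrus for 72 channel genes, in WT mice on the x axis and KO mice on the y axis, with bars of 1 SE and colours by whether the gene was called in both genotypes, in a single genotype or in neither. Kcne2, whose SE was 1.57 in WT mice, is left out of the plot but counted in the legend among the 35 genes called in neither. Most called genes sit at the lower left, with Kcnk13 and Kcnk9 farthest down, and Kcnip4 is the gene called higher in both genotypes.

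These calls depend on the younger diestrus mice in both genotypes. Of the 29 genes called lower in WT diestrus, all 29 were below the estrus mean in each of mice 548, 549 and 569, with a median difference of -0.75, -0.60 and -0.83. In the older WT mice the count was 29 in mouse 8_1 with a median of -0.23, 21 in mouse 380_4 with -0.10, and 5 in mouse 2_2 with 0.12. Of the 27 genes called lower in KO diestrus, all 27 were below the estrus mean in each of the 4 younger mice, with medians of -0.54 to -0.40, and 18 and 9 were so in the 2 older mice, with medians of -0.11 and 0.09. With only diestrus mice of 14 weeks or more limma called 0 channel genes and 0% of all genes in either genotype. At an unadjusted p under 0.05 were 4 channel genes in WT and 0 in KO mice. With only the younger diestrus mice 47 and 39 were called, with 46.9 and 39.5% of all genes. Of the 24 genes lower in both genotypes, 21 kept a negative value in WT and 19 in KO mice with only the older diestrus mice, at medians of -0.11 and -0.06. In the same fits 52 and 41 of all 73 were negative. The 29, 27 and 24 genes were all picked by fits that held these same mice, so that their signs are no separate check. The tool mattered as well, since edgeR called 0 in both genotypes, with 27 and 21 at an unadjusted p under 0.05, and DESeq2 called 1 and 2, while 54 and 52 of the 73 were negative by edgeR. Of all genes edgeR called 0.0124 and 0.0866%, and DESeq2 0.687 and 0.915%. With only mice of matings with the Cnih3 line, which hold the 3 younger and 1 older of the WT diestrus mice but 1 of the 7 WT estrus mice, 4 WT genes were called. Leaving out any of mice 548, 549 and 569 took the WT count to 0, and leaving out KO estrus mouse 12_2 or 9_1 took the KO count to 15 and 16. Of all genes 0.0247, 0 and 0.00619% were then called in WT mice, and 16.5 and 17% in KO mice. The fit with the Cnih3 line matings rests on 1 WT estrus mouse, and its WT median of the 73 was -0.38.

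**Figure D2:**
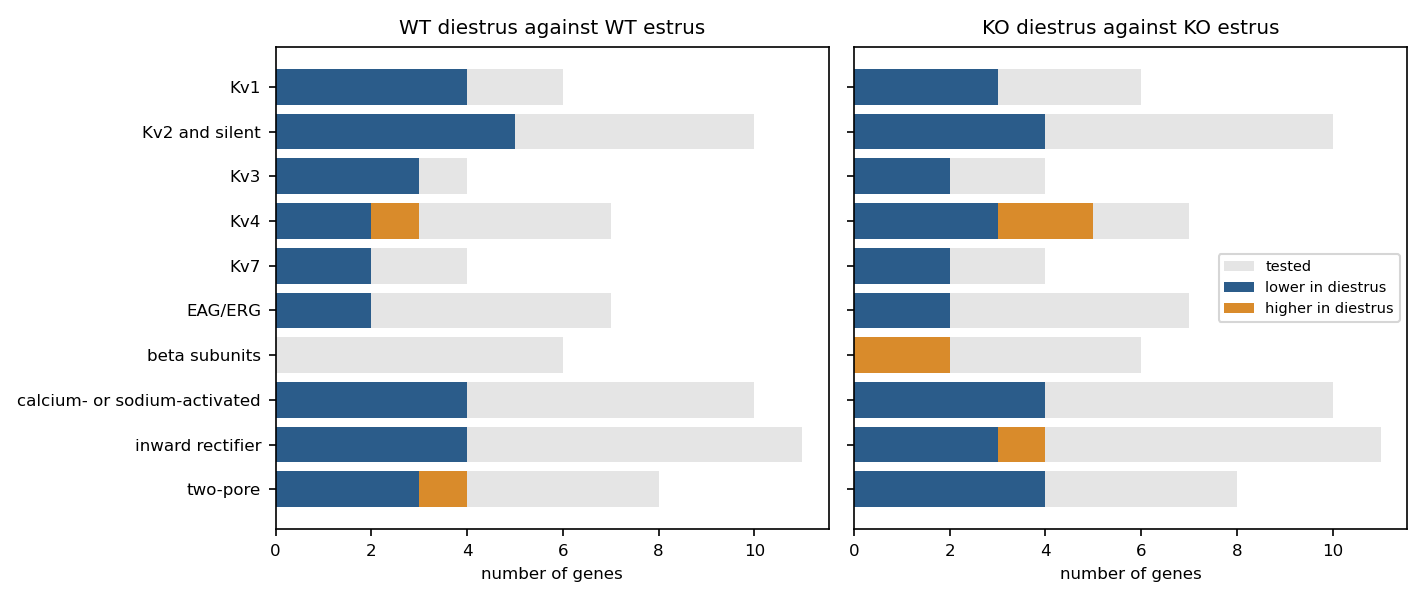
Number of channel genes called higher or lower in diestrus than in estrus by family, in WT and KO mice, over the number tested in each family (Kv1 is Kcna, Kv2 and silent are Kcnb, Kcnf, Kcng, Kcns and Kcnv, Kv3 is Kcnc, Kv4 is Kcnd with Kcnip, Kv7 is Kcnq, EAG/ERG is Kcnh, beta subunits are Kcnab and Kcne, and two-pore is Kcnk). Lower calls lead in every family but the beta subunits, which had 0 lower calls in both genotypes.

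Among the Kcna genes, which open at low voltage at axons and terminals, 4 of 6 tested were lower in WT diestrus than estrus (Kcna1, Kcna2, Kcna4 and Kcna6) and 3 of 6 in KO diestrus (Kcna1, Kcna2 and Kcna4). Kcna2, of juxtaparanodes and axon initial segments, was lower by -0.45 ± 0.12 (FDR = 0.00678) in WT and -0.36 ± 0.11 (FDR = 0.0140) in KO mice. Kcna4, which inactivates fast, was lower by -0.39 ± 0.12 (FDR = 0.0130) and -0.33 ± 0.11 (FDR = 0.0178). Kcna6 had -0.43 ± 0.10 (FDR = 0.00312) in WT and -0.24 ± 0.10 (FDR = 0.0531) in KO mice. In Kcna1 the younger WT diestrus mice had 5.66, 5.72 and 6.03 log2 CPM against 6.24, 6.38 and 6.5 in the older, so that the age classes did not overlap in WT mice. In KO diestrus the younger had 5.47, 5.82, 5.90 and 6.04 and the older 5.85 and 6.44, so that there they did. For the older mice alone, Kcna1 had 0.01 (FDR = 0.987) against estrus in WT mice. Kcna3 and Kcna5, at a mean of 0.96 and -0.15 log2 CPM, were not called in any of the stage tests.

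Of the Kcnb channels and the silent subunits that join them, 5 of 10 were lower in WT and 4 of 10 in KO diestrus, 0 were higher, and the others did not pass. Kcnb2, of the delayed rectifier, lies at chr1:15287254-15723750 (GRCm38, + strand). In WT diestrus its levels were 3.55, 3.95 and 3.99 in the younger mice and 4.57, 4.61 and 4.71 in the older, and in estrus they ran from 4.72 to 4.84 with a median of 4.73. In KO diestrus the younger mice had 3.82, 4.01, 4.30 and 4.31 and the older 4.69 and 4.81, and in estrus the levels ran from 4.34 to 5.03 with a median of 4.60. All WT diestrus mice were below all WT estrus mice, while in KO mice the older diestrus mice lay within the estrus range. The difference was -0.61 ± 0.14 (FDR = 0.00207) in WT and -0.49 ± 0.13 (FDR = 0.00394) in KO mice, where it was 0.07 (limma FDR = 1) with only the older diestrus mice. The silent subunit gene Kcng1 was lower by -0.59 ± 0.16 (FDR = 0.00616) and -0.63 ± 0.14 (FDR = 0.000847), and Kcns2 by -0.55 ± 0.15 (FDR = 0.00639) and -0.56 ± 0.14 (FDR = 0.00184). Kcnf1 was lower in WT by -0.56 ± 0.15 (FDR = 0.00740), with 0 (FDR = 0.999) for the older mice alone, and had -0.22 ± 0.14 (FDR = 0.206) in KO mice.

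Kcnc1, of fast-spiking cells, was lower in diestrus in both genotypes. Its levels in WT diestrus were 5.21, 5.31 and 5.45 in the younger and 5.69, 5.71 and 6.07 in the older mice, against 5.67 to 5.99 in estrus with a median of 5.91. In KO diestrus they were 5.39, 5.45, 5.51 and 5.57 in the younger and 5.64 and 5.98 in the older mice, against 5.62 to 6.11 in estrus with a median of 5.74. The younger diestrus mice were below all estrus mice in both genotypes, and the difference was -0.39 ± 0.10 (FDR = 0.00530) and -0.34 ± 0.10 (FDR = 0.00597). Kcnc2 was lower in WT by -0.39 ± 0.11 (FDR = 0.0116) and had -0.25 ± 0.10 (FDR = 0.0594) in KO mice.

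In the Kcnd and Kcnip group the pore-forming genes and their partners parted. Kcnd2, at chr6:21215503-21729805 (GRCm38, + strand), had 6.41, 6.49 and 6.82 in the younger and 6.90, 7.03 and 7.15 in the older WT diestrus mice, against 7.05 to 7.31 in estrus with a median of 7.17. In KO mice the younger diestrus levels were 6.61, 6.76, 6.87 and 6.96 and the older 7.17 and 7.22, against 6.87 to 7.48 in estrus with a median of 7.12. Kcnd2 was lower by -0.44 ± 0.10 (FDR = 0.00149) in WT and -0.33 ± 0.09 (FDR = 0.00550) in KO diestrus, where it was 0.02 (FDR = 1) with the older mice alone. Kcnd3 was lower by -0.54 ± 0.14 (FDR = 0.00421) and -0.47 ± 0.12 (FDR = 0.00324). Kcnip4, whose product binds Kcnd channels and modulates their inactivation, was higher by 0.28 ± 0.10 (FDR = 0.0439) and 0.31 ± 0.10 (FDR = 0.0160). Kcnip3 was higher in KO diestrus by 0.31 ± 0.10 (FDR = 0.0179) and had 0.17 ± 0.11 (FDR = 0.241) in WT mice. KO estrus mouse 12_1, the only one under 14 weeks, had 7.56 log2 CPM of Kcnip3 against 6.18 to 6.40 in the other 5, and without it the KO difference was 0.39 (FDR = 0.000821). Kcnip1 and Kcnip2 had values from -0.07 to 0.02 in both contrasts.

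Of the Kcnq genes, Kcnq3, of the M current, was lower in WT by -0.37 ± 0.10 (FDR = 0.00918) and had -0.18 ± 0.10 (FDR = 0.157) in KO mice. Kcnq5 had -0.29 ± 0.13 (FDR = 0.0944) in WT and -0.29 ± 0.12 (FDR = 0.0473) in KO mice, so that equal differences fell on the 2 sides of the threshold. The KO minus WT difference of these contrasts was called for none of the 73 genes.

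Among the Kcnh genes, which are related to ether-a-go-go, Kcnh1 and Kcnh7 were lower in diestrus than in estrus in both genotypes, with Kcnh7 at -0.55 ± 0.14 (FDR = 0.00542) in WT and -0.53 ± 0.13 (FDR = 0.00263) in KO mice and Kcnh1 at -0.56 ± 0.15 (FDR = 0.00566) and -0.33 ± 0.13 (FDR = 0.0494). The KO difference of Kcnh1 was 0.20 (FDR = 1) with only the older diestrus mice. Kcnh2 and Kcnh3 differed from proestrus instead. Kcnh3, at chr15:99224861-99242817 (GRCm38, + strand), had 3.81, 4.44, 4.64, 4.89 and 5.07 in WT proestrus against 3.01, 3.24 and 3.85 in the younger and 3.78, 3.80 and 4.49 in the older WT diestrus mice. In KO mice proestrus levels were 4.03, 4.22, 4.30 and 4.31 and diestrus levels were 3.10, 3.28, 3.29 and 3.34 in the younger and 2.53 and 3.72 in the older mice. In WT mice the groups overlapped, while in KO mice all diestrus mice were below all proestrus mice, and the older KO mice lay on both sides of the younger ones. The difference from proestrus was -1.14 ± 0.27 (FDR = 0.00768) in WT and -1.02 ± 0.25 (FDR = 0.00126) in KO mice. Kcnh2, the ERG channel of the heart and of neurons, had 1.37, 2.02, 2.08, 2.22 and 2.22 in WT proestrus against 0.18, 0.96 and 1.44 in the younger and 1.02, 1.56 and 2.25 in the older diestrus mice. In KO mice it had 1.99, 2.01, 2.39 and 2.58 against 0.37, 1.21, 1.39 and 1.42 in the younger and 1.22 and 2.37 in the older. Apart from a single older mouse in each genotype, diestrus levels were below nearly all proestrus levels. It was lower by -0.86 ± 0.28 (FDR = 0.0436) and -1.19 ± 0.23 (FDR = 9.84e-05).

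The beta subunits of the Kcnab and Kcne genes had no lower call. Kcnab2, at chr4:152390742-152477871 (GRCm38, - strand), which binds Kcna channels and guides them to axons, had 9.61, 9.69, 9.78 and 9.87 in the younger KO diestrus mice and 9.21 and 9.27 in the older. KO estrus ran from 9.24 to 9.49 with a median of 9.31, and KO proestrus had 8.86, 9.07, 9.16 and 9.21. The younger KO diestrus mice were above all KO estrus and proestrus mice, and the older ones were within or just below the estrus range. In WT mice the younger diestrus levels of 9.48, 9.58 and 9.62 overlapped those of the older, 9.26, 9.35 and 9.59, and estrus ran from 9.21 to 9.49. Kcnab2 was higher in KO diestrus than in estrus by 0.32 ± 0.08 (FDR = 0.00324) and than in proestrus by 0.55 ± 0.09 (FDR = 7.78e-06), and had 0.15 ± 0.09 (FDR = 0.197) against estrus in WT mice. Among the older KO diestrus mice alone Kcnab2 had -0.12 (FDR = 1) against estrus. Kcnab1 was higher in KO diestrus than in proestrus by 0.48 ± 0.10 (FDR = 0.000267), but sums of its transcript estimates gave -1.39 (FDR = 0.00493), and its direction is uncertain. Kcnab3 was higher in KO diestrus than in estrus by 0.33 ± 0.11 (FDR = 0.0227).

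The group of channels opened by calcium or sodium held 10 tested genes, with the auxiliary Kcnmb subunits and Kcnu1 counted in. The same 4 of the 10 were lower in diestrus than in estrus in both genotypes, namely Kcnma1, Kcnn2, Kcnt1 and Kcnt2. Kcnt1, of a sodium-activated current, lies at chr2:25863734-25918273 (GRCm38, + strand). Its levels in WT diestrus were 1.20, 1.37 and 2.08 in the younger and 2.59, 3.07 and 3.19 in the older mice, against 2.50 to 3.26 in estrus with a median of 2.80. In KO diestrus they were 1.91, 1.95, 2.11 and 2.26 in the younger and 3.16 and 3.21 in the older mice, against 2.39 to 3.37 in estrus with a median of 3.04. The younger mice were below every estrus mouse of their genotype and the older ones within the estrus range. It was lower by -0.83 ± 0.23 (FDR = 0.00915) in WT and -0.89 ± 0.20 (FDR = 0.000944) in KO mice, although sums of transcript estimates gave 0.33 (FDR = 0.786) in WT mice. For the older mice alone it was 0.06 (FDR = 0.962) in WT and 0.09 (FDR = 1) in KO mice. Kcnt2, its paralog, had 2.86, 3.11 and 3.37 in the younger and 3.77, 3.98 and 4.05 in the older WT mice, against 3.87 to 4.06 in estrus. In KO mice the younger had 3.12, 3.19, 3.22 and 3.41 and the older 3.72 and 3.82, against 3.56 to 4.26 in estrus, and the differences were -0.59 ± 0.13 (FDR = 0.00170) and -0.56 ± 0.12 (FDR = 0.000681). Kcnma1, the large-conductance calcium-activated channel, was lower by -0.41 ± 0.11 (FDR = 0.00829) and -0.37 ± 0.11 (FDR = 0.00799), with 0.10 (FDR = 1) in KO mice for the older mice alone, and the small-conductance Kcnn2 by -0.44 ± 0.11 (FDR = 0.00422) and -0.36 ± 0.10 (FDR = 0.00708).

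Among the 11 inward rectifiers tested, 4 were lower in WT diestrus than estrus, and in KO diestrus 3 were lower and 1 higher. Kcnj3 and Kcnj6, which together form the channel opened by G protein-coupled receptors in hippocampal neurons, were lower in both genotypes. Kcnj3, at chr2:55435970-55598145 (GRCm38, + strand), had 5.99, 6.18 and 6.22 in the younger and 6.30, 6.6 and 6.62 in the older WT diestrus mice against 6.55 to 6.74 in estrus with a median of 6.72. In KO diestrus it had 6.21, 6.30, 6.32 and 6.43 in the younger and 6.54 and 6.64 in the older mice, against 6.24 to 6.90 in estrus with a median of 6.72. The WT diestrus mice overlapped estrus only in the older mice. The difference was -0.42 ± 0.09 (FDR = 0.00155) in WT and -0.30 ± 0.09 (FDR = 0.00690) in KO mice, and for Kcnj6 it was -0.61 ± 0.19 (FDR = 0.0172) and -0.76 ± 0.17 (FDR = 0.000659). Kcnj4, a strong rectifier of forebrain neurons, was lower by -0.50 ± 0.19 (FDR = 0.0450) and -0.55 ± 0.18 (FDR = 0.0197), and Kcnj2 was lower in WT by -0.84 ± 0.24 (FDR = 0.0112) and had -0.31 ± 0.22 (FDR = 0.272) in KO mice.

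Kcnj16, at chr11:110968033-111027968 (GRCm38, + strand), which joins Kcnj10 in a glial channel, went the other way. KO diestrus levels were 2.85, 3.03, 3.07 and 3.09 in the younger and 2.45 and 2.69 in the older mice, KO estrus ran from 1.77 to 2.65 with a median of 2.07, and KO proestrus had 1.65, 2.01, 2.36 and 2.42. Both older KO diestrus mice were above 5 of the 6 estrus mice or all of them, and above all proestrus mice. Kcnj16 was higher in KO diestrus than in estrus by 0.84 ± 0.17 (FDR = 0.000379) and than in proestrus by 0.89 ± 0.19 (FDR = 0.000267), and had 0.35 ± 0.19 (FDR = 0.182) against estrus in WT mice, where diestrus ran from 1.64 to 2.83 and estrus from 1.35 to 2.50. The KO minus WT difference of this contrast was not called. Its partner Kcnj10 had -0.02 ± 0.12 (FDR = 0.910) and -0.05 ± 0.11 (FDR = 0.763). The 6 astrocyte markers had means of 7.23 to 7.53 in KO diestrus and 7.16 to 7.86 in KO estrus, and 1 was called higher and 1 lower.

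The tandem-pore genes held the largest falls between estrus and diestrus among the called genes, with 3 of 8 lower and 1 higher in WT and 4 lower in KO mice. Kcnk13, at chr12:99964499-100062682 (GRCm38, + strand), had -0.30, 0.75 and 0.83 log2 CPM in the younger and 1.60, 2.14 and 2.82 in the older WT diestrus mice. WT metestrus mice had 1.39, 1.52, 2.02 and 2.14, proestrus mice 2.01, 2.11, 2.20, 2.68 and 3.24, and males 1.76, 1.78, 2.06, 2.60 and 2.81, and estrus mice ran from 1.24 to 2.61 with a median of 1.74. In KO diestrus the younger mice had -0.28, 0.23, 0.31 and 0.40 and the older 1.26 and 1.96. KO metestrus mice had 1.70, 2.03, 2.09, 2.22 and 2.43, proestrus mice 1.79, 1.90, 1.91 and 2.06, estrus mice ran from 1.70 to 2.30 with a median of 1.87, and males from 1.61 to 2.62 with a median of 2.15. The 7 younger diestrus mice were the 7 lowest of the 55, and no mouse of another stage or sex was under 1.24. Group means were 1.31 ± 1.11 (SD, n = 6) in WT diestrus and 0.65 ± 0.81 (SD, n = 6) in KO diestrus, against 1.82 ± 0.49 (SD, n = 7) and 1.98 ± 0.25 (SD, n = 6) in estrus. The fitted difference from estrus was -0.85 ± 0.31 (FDR = 0.0412) in WT and -1.61 ± 0.30 (FDR = 0.000112) in KO mice, and that from proestrus was -1.66 ± 0.32 (FDR = 0.00159) and -1.57 ± 0.32 (FDR = 0.000154). In WT mice with only the older diestrus mice, the difference from estrus was 0.17 (FDR = 0.897). The mean of the 5 microglia markers was 4.10 to 4.59 in the younger and 4.56 to 4.70 in the older WT diestrus mice, and 4.22 to 4.42 and 4.42 to 4.63 in KO mice. Of these markers 2 were called lower in diestrus than in estrus in each genotype, and their part in the result for Kcnk13 was not tested.

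Kcnk9, an acid-sensitive leak channel at chr15:72501089-72546340 (GRCm38, - strand), had 2.34, 3.10 and 3.15 in the younger and 3.81, 3.86 and 4.27 in the older WT diestrus mice against 4.00 to 4.48 in estrus with a median of 4.23. KO diestrus had 3.02, 3.04, 3.12 and 3.51 in the younger and 4.32 and 4.37 in the older mice against 2.92 to 4.61 in estrus with a median of 4.39. The single KO estrus mouse under 14 weeks was the lowest of its group, at 2.92, and the other 5 had at least 3.95. The difference was -0.96 ± 0.20 (FDR = 0.00118) in WT and -1.03 ± 0.18 (FDR = 4.96e-05) in KO mice. Without that mouse the KO difference was -1.13 (FDR = 7.98e-06). Kcnk1 was lower by -0.45 ± 0.13 (FDR = 0.0123) and -0.36 ± 0.13 (FDR = 0.0254). The stretch-activated Kcnk4 was higher in WT diestrus by 0.40 ± 0.13 (FDR = 0.0212) and had 0.25 ± 0.12 (FDR = 0.116) in KO mice, Kcnk10 was lower in KO diestrus by -0.41 ± 0.13 (FDR = 0.0170), and the related Kcnk2 and the acid-sensitive Kcnk3 were called in neither.

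**Figure D3:**
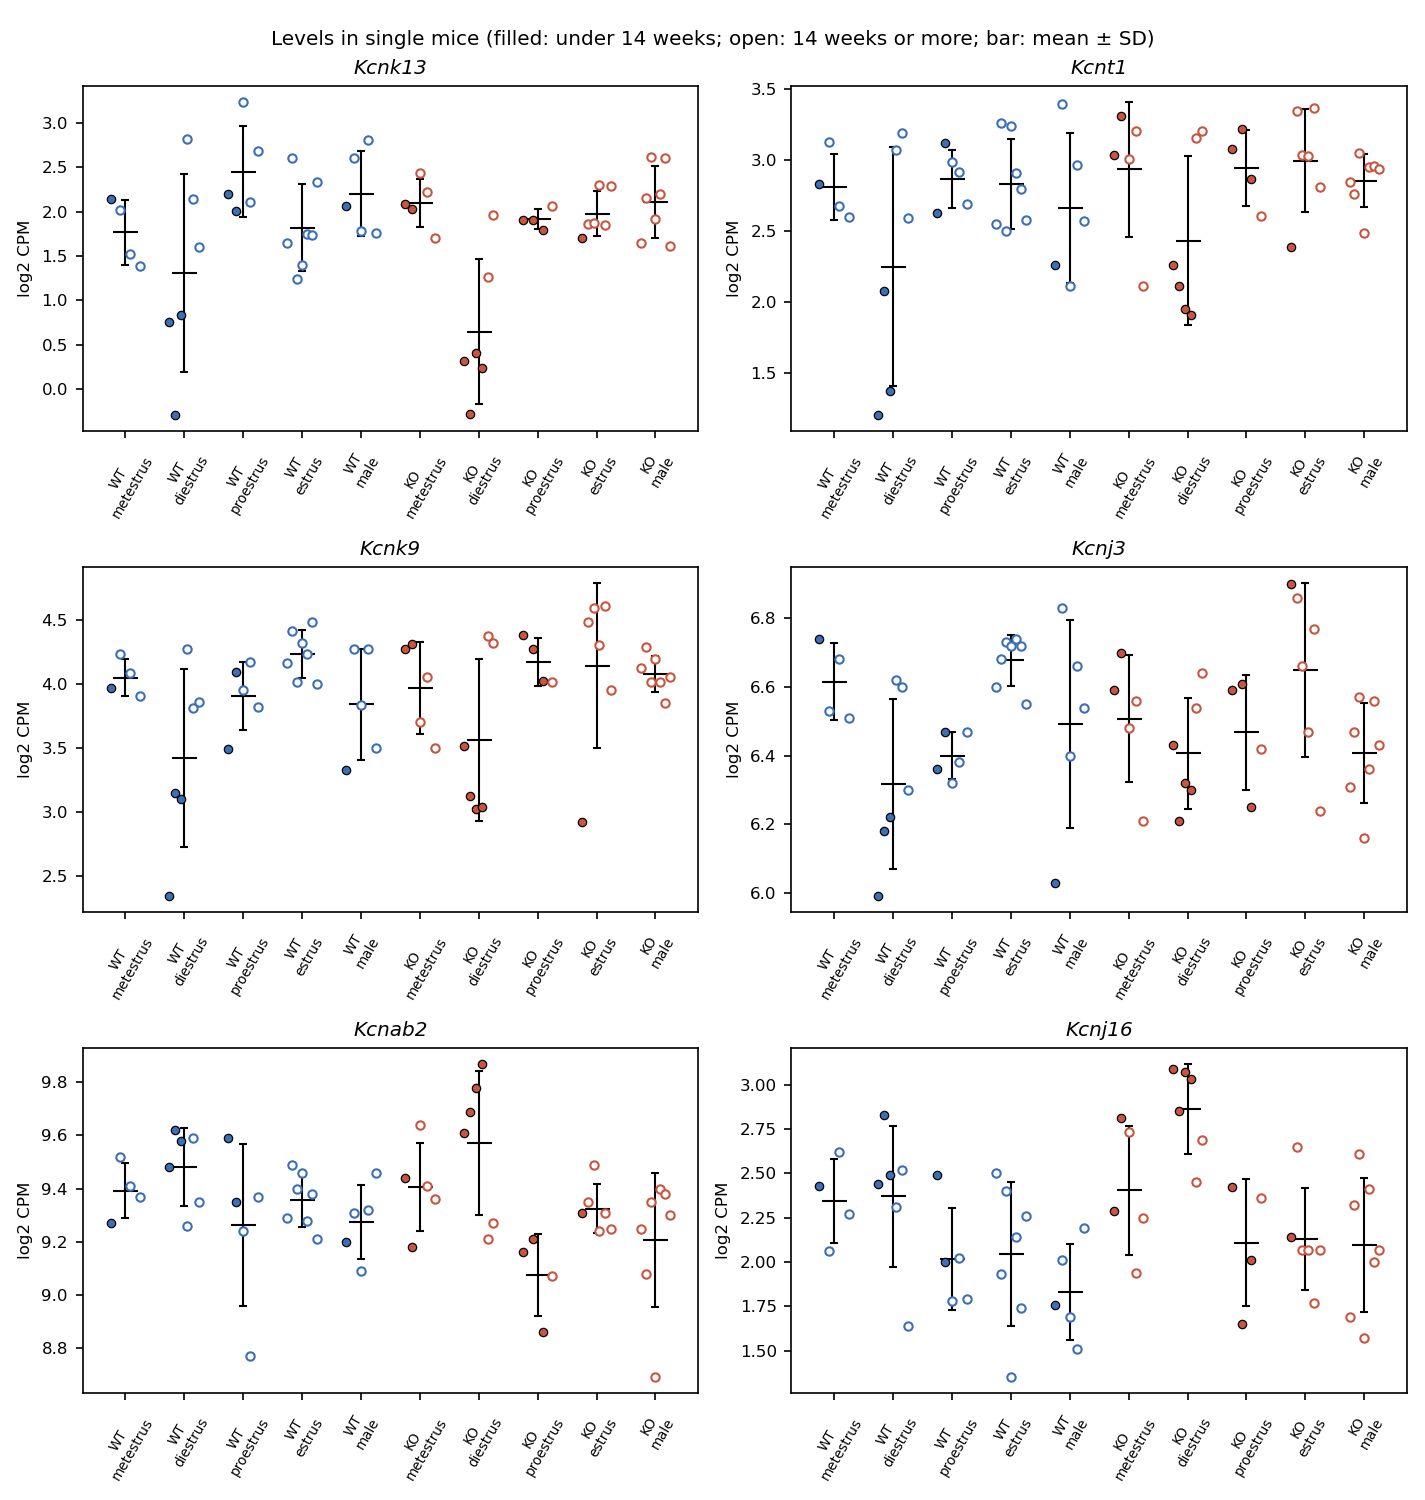
Level in log2 CPM of Kcnk13, Kcnt1, Kcnk9, Kcnj3, Kcnab2 and Kcnj16 in each of the 55 mice by group, with filled points for mice under 14 weeks and open points for older mice. In Kcnk13 the 7 filled diestrus points lie below all other mice, in Kcnab2 the 4 filled KO diestrus points lie above the KO estrus mice. Bars give the mean and SD of each group.

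The promoter windows of 5 genes that were lower in diestrus in both genotypes are shown because estrogen varies over the cycle and these windows either hold the motif GGTCA, a single arm of the estrogen response element, or belong to the gene with the smallest FDR. Windows are from RefSeq on GRCm38.p6, 250 bases before to 50 after the start, and 51 of the 73 genes and 14 of the 24 lower ones had a window. Capitals mark GGTCA or its reverse complement TGACC and the GC box GGGCGG or its reverse complement CCGCCC, and in the window of Kcnj4 a pair of GC boxes on opposite strands adjoin. The start sites that set the Kcnd3 and Kcnk1 windows lie 440 and 68 bases from the gene start of the annotation used for positions. Those of the other 3 genes lie within 3 bases of it.
Kcnd3, chr3:105451640-105451939, + strand: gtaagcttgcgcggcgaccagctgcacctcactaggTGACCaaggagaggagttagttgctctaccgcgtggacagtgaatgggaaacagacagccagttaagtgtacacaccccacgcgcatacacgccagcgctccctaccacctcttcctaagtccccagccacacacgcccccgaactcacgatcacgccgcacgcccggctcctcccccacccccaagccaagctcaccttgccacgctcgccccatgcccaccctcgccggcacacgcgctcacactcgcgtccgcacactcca
Kcnh1, chr1:192190527-192190826, + strand: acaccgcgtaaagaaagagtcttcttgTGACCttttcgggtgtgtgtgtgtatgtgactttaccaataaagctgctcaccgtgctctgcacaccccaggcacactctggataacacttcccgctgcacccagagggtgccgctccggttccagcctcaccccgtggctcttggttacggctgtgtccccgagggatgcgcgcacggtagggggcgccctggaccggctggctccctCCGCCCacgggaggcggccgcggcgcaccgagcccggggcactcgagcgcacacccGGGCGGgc
Kcnj4, chr15:79505192-79505491, - strand: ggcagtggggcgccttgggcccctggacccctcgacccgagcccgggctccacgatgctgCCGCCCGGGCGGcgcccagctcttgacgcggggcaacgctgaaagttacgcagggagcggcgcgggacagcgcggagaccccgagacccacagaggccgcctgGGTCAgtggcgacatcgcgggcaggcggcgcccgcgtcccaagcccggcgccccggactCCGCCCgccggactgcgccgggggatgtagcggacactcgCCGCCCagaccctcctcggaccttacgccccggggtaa
Kcnk1, chr8:125994852-125995151, + strand: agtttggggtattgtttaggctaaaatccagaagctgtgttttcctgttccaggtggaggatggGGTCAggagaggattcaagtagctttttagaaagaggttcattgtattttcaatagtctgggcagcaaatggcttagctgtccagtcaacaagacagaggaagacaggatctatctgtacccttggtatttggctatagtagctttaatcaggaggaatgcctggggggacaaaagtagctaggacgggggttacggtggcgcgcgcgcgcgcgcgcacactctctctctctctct
Kcnk13, chr12:99964249-99964548, + strand: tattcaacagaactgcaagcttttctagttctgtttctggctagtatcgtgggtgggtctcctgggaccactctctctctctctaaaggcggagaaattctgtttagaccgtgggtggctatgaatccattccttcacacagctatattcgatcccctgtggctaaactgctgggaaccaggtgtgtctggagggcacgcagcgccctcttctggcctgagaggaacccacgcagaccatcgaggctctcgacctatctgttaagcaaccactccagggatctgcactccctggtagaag

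GGTCA on either strand was present in 12 of the 51 windows, or 23.5%, and in 40.2% of 27025 windows of all genes, so that it was not more frequent in the channel genes. The full element GGTCANNNTGACC, which contains GGTCA on both strands, was in 0 of the 51 and in 0.0666% of all windows. Of the 14 lower genes with a window, 4 held GGTCA and 9 a GC box. GC boxes were in 51.0% of the channel windows and 35.9% of all windows, the TATA box TATAAA in 1.96 and 14.2%, the E box CACGTG in 7.84 and 7.24%, and the cyclic AMP response element TGACGTCA in 0 and 1.88%. The window of Kcnk13 held none of these motifs.

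The 24 genes that were lower in both genotypes spanned the families, from Kcna2, Kcnb2, Kcnc1 and Kcnd2 to Kcnh7, Kcnma1, Kcnj3 and Kcnk13, with pore-forming or silent alpha subunits only. They were longer and more abundant than the other 49. Their genes spanned a median of 76.95 kb from 6.0 to 725.1 kb, against a median of 26.4 kb, with a median exon length of 7.40 against 3.98 kb, and their median level was 4.70 against 2.85 log2 CPM, or 2.22 against 0.97 log2 CPM per kb. The level bears on how readily a gene passes the test.

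Outside diestrus, the levels of these 24 genes were compared with the nuclear-retained RNAs library by library. Of the libraries outside diestrus, the 5 with the lowest nuclear-retained RNA were WT male 1949 with 5.74, KO metestrus mouse 7_2 with 6.12, WT male 19_1 with 6.38, KO metestrus mouse 10_1 with 6.40 and WT proestrus mouse 20_2 with 6.61. In these, 20, 24, 22, 10 and 22 of the 24 genes were below the mean of the other mice of their group. Thus 4 of the 5 had most of the 24 genes low, and mouse 10_1 did not. Low levels were also seen with nuclear-retained RNA near or above the median, as in WT metestrus mouse 3_3, with 7.34 and 24 of 24 genes below, in KO estrus mouse 8_4, with 7.19 and 23, and in KO estrus mouse 2593, with 7.55 and 19. With the level of these RNAs as a covariate, 0 channel genes were called in diestrus against estrus in either genotype, and the median of the 24 was -0.09 in WT and -0.05 in KO mice. The younger diestrus mice held 7 of the 8 lowest values of this covariate, the other being WT male 1949, and the part of the other features of these mice was not tested.

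**Figure D4:**
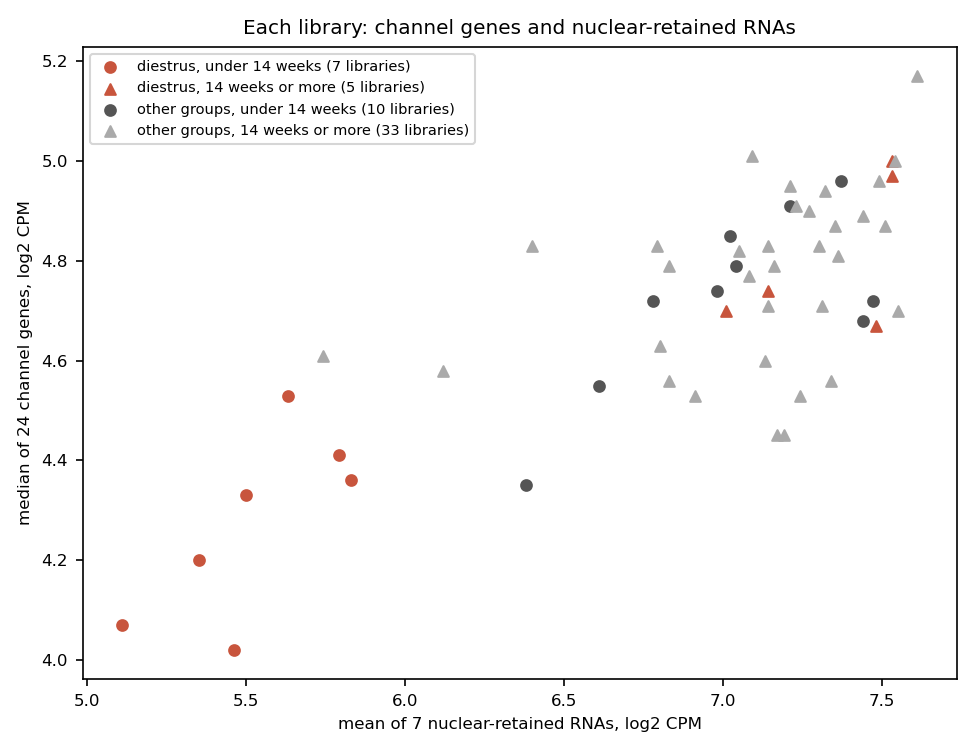
Median level of the 24 channel genes lower in both diestrus groups (y axis, log2 CPM) against the mean level of 7 nuclear-retained RNAs (x axis, log2 CPM) in each of 55 libraries. The 7 younger diestrus libraries sit at the lower left with 5.11 to 5.83 on the x axis, and WT male 1949, with 5.74 and a median of 4.61, is the nearest library of another group on that axis.

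Age was compared further with the 10 mice under 14 weeks in the other groups. Of these, WT male 19_1, WT proestrus mouse 20_2 and KO estrus mouse 12_1 had 22, 21 and 17 of the 24 genes below the mean of the older mice of their group. The other 7 had 3 to 9 of 24 below it, of which the 3 KO proestrus mice could be set against only 1 older mouse. Low levels were thus found in 3 of the 10. With only mice under 14 weeks in each group, 37 channel genes were called between 4 KO diestrus and 3 KO proestrus mice, 7 higher and 30 lower, while 38.6% of all genes were called. In WT mice 6 were called lower between 3 diestrus and 2 proestrus mice, with 7.95% of all genes.

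Against proestrus, the stage of the estradiol peak, the KO channel genes moved as broadly as against estrus. In KO mice 34 of 73 were called, 28 lower and 6 higher in diestrus, while 34.3% of all genes were called, 19.4% lower and 14.9% higher. In WT mice 13 were called, all 13 lower, while 9.66% of all genes were called, 7% lower and 2.67% higher. The median was -0.277 in KO and -0.207 in WT mice. There were 12 genes called in both genotypes, 92.3% of the WT and 35.3% of the KO calls, and the overlap over all genes is again not given. All 12 were lower in both. Beside Kcnk13, Kcnh2, Kcnh3 and Kcnt1 they included Kcnj4 with -0.63 ± 0.21 (FDR = 0.0455) in WT and -0.93 ± 0.18 (FDR = 0.000134) in KO mice. Kcnj14, an inward rectifier of motor neurons at a mean of 0.16 log2 CPM here, had the largest rise in KO diestrus against proestrus, 1.06 ± 0.31 (FDR = 0.00612), and 0.88 ± 0.35 (FDR = 0.0907) in WT mice. This contrast shares its diestrus mice with the one against estrus. With only the older diestrus mice limma called 0 in either genotype, with 4 in each at an unadjusted p under 0.05. edgeR called 0 in WT and 9 in KO mice, with 14 at an unadjusted p under 0.05 in WT mice, and DESeq2 called 0 and 12. Of all genes edgeR called 0.00619 and 8.37%, and DESeq2 0.0928 and 11.1%. Leaving out WT diestrus mouse 548, 549 or 569 gave 0 WT calls, leaving out a single older WT diestrus mouse gave 27 to 30, and leaving out WT proestrus mouse 20_2 or 4_1 gave 21 and 4. In the same order these fits called 0%, 31.1 to 32.3%, 14.9% and 2.45% of all genes.

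Between metestrus and diestrus 13 WT genes were called, all higher in metestrus, with 7.24% of all genes called. In KO mice 12 were called, 9 higher and 3 lower in metestrus, with 10.4% of all genes. The medians of the 73 were 0.181 and 0.138. With only the older diestrus mice limma called 0 channel genes and 0% of all genes in either genotype. At an unadjusted p under 0.05 were 2 and 3 channel genes, and the medians were -0.00966 and -0.111. Metestrus lies directly before diestrus in the cycle, and the diestrus mice are again the same.

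Males served as a reference outside the cycle. In KO mice, 32 of 73 channel genes were called between diestrus and males, 27 lower and 5 higher in diestrus, while 28.7% of all genes were called, 18% lower and 10.7% higher, and the median was -0.174. The largest fall was again that of Kcnk13, by -1.81 ± 0.28 (FDR = 4.59e-06), and Kcnh4, Kcnh3 and Kcns1 followed with -1.12 ± 0.32 (FDR = 0.00714), -1.07 ± 0.22 (FDR = 0.000218) and -0.99 ± 0.25 (FDR = 0.00256). Kcnh4 was over 1 CPM in only 10 libraries, the least that the filter allows. Its highest group mean was that of the KO males, at 0.03 log2 CPM. Its pass of the filter and its call are therefore not independent. Kcnj16 was higher by 0.72 ± 0.15 (FDR = 0.000435), Kcnab2 by 0.38 ± 0.08 (FDR = 0.000156), with -0.07 (FDR = 0.965) for the older mice alone, and Kcnip3 by 0.35 ± 0.09 (FDR = 0.00384). With only the older KO diestrus mice limma called 0, with 3 at an unadjusted p under 0.05 and 0.0433% of all genes called. With all KO diestrus mice edgeR and DESeq2 called 7 each, where the share of all genes is not given. The KO males were 18.29 to 23.71 weeks old while 4 of the 6 KO diestrus mice were under 14 weeks, and with age as a covariate 6 channel genes were called, with 6.34% of all genes. In the same contrast 5 of 5 microglia and 10 of 12 mature oligodendrocyte markers were called lower, whose part in the result was not tested.

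In WT mice no channel gene was called between diestrus and males, with 0.068% of all genes called, or 11 genes. The paper reports more genes for this comparison at the same FDR threshold. Why the counts differ was not tested. Still, 29 of the 73 had an unadjusted p under 0.05, beside 2626 of the 16168 genes tested. The median was -0.214, against -0.0175 over all genes. edgeR and DESeq2 also called 0. Removing WT male 19_1, 1949 or 2015 gave 32, 33 and 30 calls, and removing WT diestrus mouse 2_2, 380_4 or 8_1 gave 20, 19 and 27. The share of all genes called in these fits is not given, so the counts are no result about the channel genes alone. Males 19_1 and 1949 are those with low nuclear-retained RNA.

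Over all stages, 6 channel genes were called between KO females and KO males, all 6 lower in females, while 5.93% of all genes were called, 3.83% lower. Among them were Kcns1 (-0.68 ± 0.18, FDR = 0.0190), a silent subunit known from sensory neurons, Kcnh3 (-0.63 ± 0.16, FDR = 0.0129), Kcnk13 (-0.56 ± 0.18, FDR = 0.0459), Kcnj4 (-0.42 ± 0.12, FDR = 0.0282) and Kcna1 (-0.27 ± 0.08, FDR = 0.0279). Kcnh3 in KO males ran from 3.91 to 4.58 with a median of 4.29, above all KO diestrus mice and all KO metestrus mice (2.89, 3.58, 3.69, 3.69 and 3.77), and overlapped KO estrus (2.81 to 4.02) and proestrus. KO females were 10.86 to 23.43 weeks old, and with age as a covariate 0 were called, with 8 at an unadjusted p under 0.05 and 0.142% of all genes called. With only the older diestrus mice 3 were called. edgeR called 0, with 7 at an unadjusted p under 0.05, and DESeq2 called 1. Leaving out KO male 2591, 2589 or 2016 gave 0, 1 and 3 calls, and leaving out male 2129 gave 10. For the older diestrus mice alone, for both tools and for each male left out, the share of all genes is not given.

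No channel gene was called for genotype. Between all KO and all WT mice 0 of 73 were called by limma, while 3.4% of all genes were called, and edgeR and DESeq2 called 0. Of the 73, 8 had an unadjusted p under 0.05, beside 2772 of the 16168 genes tested. The median of the 73 was 0.00722. Within stages the count of channel genes was 0 in each of the 5 comparisons, where the share of all genes called was 0.315% for proestrus, 0.179% for estrus, 0.0247% for metestrus, 0.00619% for males and 0% for diestrus. Between 1 and 9 channel genes had an unadjusted p under 0.05, beside 845 to 2214 of all genes. For the fits with fewer mice that follow, the share of all genes called is not given. Leaving out WT diestrus mouse 548, 549 or 569 gave 3, 3 and 2 calls, and with only mice of matings with the Cnih3 line 4 were called.

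The genes with the smallest FDR for genotype had small differences. Kcnj16 was first with 0.26 ± 0.09 (FDR = 0.112). Its stage means were close in metestrus (2.34 ± 0.24, SD, n = 4, in WT and 2.40 ± 0.36, SD, n = 5, in KO mice) and estrus (2.05 ± 0.40, SD, n = 7, and 2.13 ± 0.29, SD, n = 6), and farther apart in diestrus (2.37 ± 0.40, SD, n = 6, and 2.86 ± 0.25, SD, n = 6), where 4 of the 6 KO mice were above all WT mice. Kcnh6, a rare ERG channel, had 0.45 ± 0.17 (FDR = 0.141), with levels from -1.45 to 1.40 in WT and from -1.51 to 1.35 in KO libraries. The silent subunit gene Kcng4 had 0.22 ± 0.08 (FDR = 0.146), with 1.46 to 2.67 in WT and 1.58 to 2.77 in KO libraries. Kcnk2 had 0.10 ± 0.04 (FDR = 0.172), with 4.66 to 5.33 in WT and 4.65 to 5.32 in KO libraries. In Kcnh6, Kcng4 and Kcnk2 the ranges of the genotypes overlapped almost in full.

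Proteins that hold or modulate the channels were read from a list of 29 partner genes, of which 26 were measured. In diestrus against estrus 10 were called lower in WT and 12 in KO mice and 0 higher in either, with medians of -0.28 and -0.30, beside the 13.1% and 19.3% of all genes called lower. In the older diestrus mice alone, 0 partners were called in either genotype, with 0 and 1 at an unadjusted p under 0.05 and medians of -0.09 and -0.04. Between KO diestrus and KO males the partners went both ways, with 8 lower and 5 higher, among them Dlg2 with 0.41 (FDR = 0.000152) and Ank3 with 0.37 (FDR = 0.00034), beside 18% of all genes called lower and 10.7% higher, and with only the older diestrus mice 0 were called. Cntn2, an adhesion molecule that clusters Kcna channels beside the node and is also made by oligodendrocytes, was lower by -1.29 ± 0.19 (FDR = 0.000154) and -1.07 ± 0.17 (FDR = 1.94e-05). Its partner Cntnap2 was lower by -0.35 ± 0.10 (FDR = 0.0115) and -0.31 ± 0.10 (FDR = 0.0146), and Adam22 and Adam23, of the same axonal complex, by -0.72 ± 0.17 and -0.66 ± 0.15 in WT and by -0.63 ± 0.15 and -0.73 ± 0.14 in KO mice (FDR from 0.000155 to 0.00214). Dpp6, which speeds Kcnd channels, was lower by -0.72 ± 0.13 (FDR = 0.000482) and -0.61 ± 0.13 (FDR = 0.000287), with 0.10 (FDR = 1) in KO mice for the older diestrus mice alone, and Amigo1, which accompanies Kcnb channels, by -0.67 ± 0.14 (FDR = 0.00111) and -0.62 ± 0.13 (FDR = 0.00039). Abcc8, the sulfonylurea receptor of ATP-sensitive channels, was lower by -0.76 ± 0.15 (FDR = 0.000735) and -0.71 ± 0.14 (FDR = 0.000219), and its pore gene Kcnj11 had -0.26 ± 0.11 (FDR = 0.0754) and -0.12 ± 0.10 (FDR = 0.351).

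Of the hyperpolarization-activated channels that oppose these currents, Hcn3 was lower in WT by -0.62 ± 0.23 (FDR = 0.0482) and Hcn2 in KO mice by -0.90 ± 0.22 (FDR = 0.00209). Further calls were Lgi1 in WT by -0.35 ± 0.09 (FDR = 0.00704) and, in KO mice, Pex5l by -0.46 ± 0.11 (FDR = 0.00134), Lrrc55 by -0.53 ± 0.17 (FDR = 0.0186) and Vapa by -0.16 ± 0.06 (FDR = 0.0283). The scaffolds Dlg1, Dlg2 and Dlg4 had values from -0.07 to 0.09. Between KO and WT mice 0 of the 26 were called.

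Single channel genes were set against the markers of the cells known to express them, over 55 libraries with the group means removed, in 5 relations with permutation tests of 100000 resamples. Kcne2, a partner subunit of the choroid plexus epithelium at chr16:92292389-92298129 (GRCm38, + strand), ran from -4.47 to 4.00 log2 CPM over the libraries. It was high in some mice of nearly every group, with 2.94, 3.55 and 3.93 in 3 of 5 WT proestrus mice, 3.68 in a KO metestrus mouse and 4.00 in a KO proestrus mouse, and it was lowest in WT estrus, from -4.29 to -1.03. It followed the 9 choroid plexus markers with r = 0.94 (two-sided permutation p = 1e-05, the smallest that these resamples can give, BH-adjusted 5e-05) and Spearman's rho = 0.92 (p = 1e-05, adjusted 5e-05). Without the 2 libraries farthest from the median of the markers r was 0.93. Kcne2 was among the genes called over the WT stages (FDR = 0.0216), where the choroid plexus markers ran from -0.74 to 1.54 in estrus and from 0.80 to 4.43 in proestrus.

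Kcnj10, the main inward rectifier of astrocytes at chr1:172341210-172374085 (GRCm38, + strand), ran from 4.73 to 5.69 and followed the 6 astrocyte markers with r = 0.50 (permutation p = 0.00015, adjusted 0.00037) and rho = 0.44 (adjusted 0.0015), and with r = 0.43 without the 2 farthest libraries. Its partner Kcnj16 had r = 0.46 (permutation p = 0.00050, adjusted 0.00083) and rho = 0.55 (adjusted 5e-05), and r = 0.47 without them. Kcnc1 had r = 0.34 with 5 markers of parvalbumin interneurons (permutation p = 0.011, adjusted 0.014) and rho = 0.30 (adjusted 0.034), but r = 0.23 (adjusted 0.12) without the 2 farthest libraries, so that this relation rests on them. Kcnj8, of pericytes, had r = 0.19 (permutation p = 0.15, adjusted 0.15) and rho = 0.17 (adjusted 0.22) with 6 mural cell markers, which did not pass. Its levels were low, from -1.16 to 1.66 log2 CPM. The points of each relation share a library and its RNA quality.

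**Figure D5:**
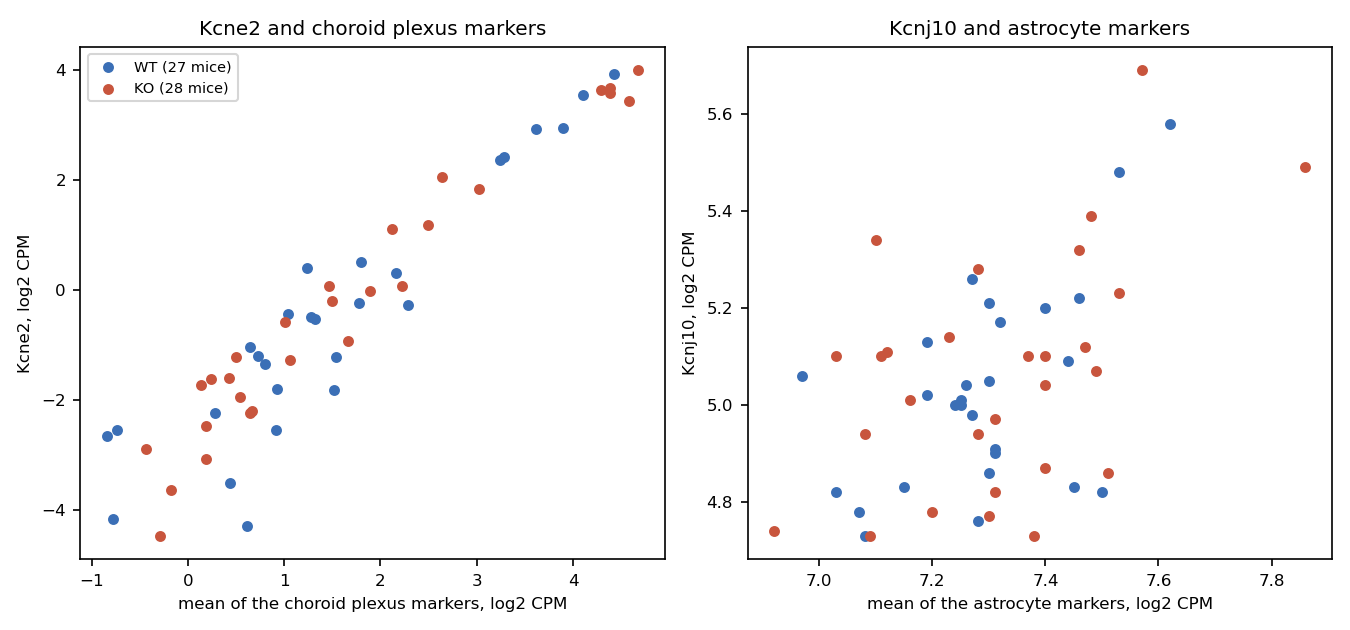
Level of Kcne2 against the mean of 9 choroid plexus markers (left) and of Kcnj10 against the mean of 6 astrocyte markers (right) in 55 libraries, in log2 CPM as measured, with WT and KO mice in separate colours. Kcne2 lies close to a line over its whole range and Kcnj10 scatters more widely, where r with the group means removed was 0.94 and 0.50.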

How the data were processed

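Dorsal hippocampus was lysed in NP-40 buffer, spun, and the supernatant taken for RNA (integrity number over 8) and polyadenylated cDNA libraries that do not mark strand, so reads of overlapping antisense genes cannot be told apart. The authors aligned reads with STAR 2.7.9a to GRCm38, counted them per Ensembl gene with featureCounts 2.0.3 and estimated transcripts with Salmon 1.5.2. They deposited raw read counts per gene, estimated counts per transcript, and log2 CPM of the genes they tested, which here served only to check the scaling. Read counts rather than pairs were deposited, since 60.1% of counts from 1 to 10 were even. The deposited CPM values entered no test, 1 count column matched no listed mouse and was left out, and 287 repeated lines were dropped. Depth is given with the results, and it limits precision for genes near 1 CPM.

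Genes over 1 CPM in at least 10 libraries, without 5 ribosomal genes, were scaled by TMM (edgeR 4.0.16) and fitted with voomWithQualityWeights in limma 3.58.1 (R 4.3.3), with 1 mean per group and Benjamini-Hochberg adjustment within each comparison. Replicates are separate mice. Alternatives were edgeR's quasi-likelihood test, DESeq2 1.42.0, other scaling and filters, age as covariate, rounded gene sums of the transcript estimates (14773 genes), subsets by age or parents, and each mouse left out. Subsets of mice under 14 weeks in every group, the nuclear RNA covariate, a block by mouse number and older diestrus mice alone for metestrus and partner genes were added after seeing the data. The limma fit with and without the block, edgeR, DESeq2 and the permutation test were tried on simulated data. The simulated counts held no age or cohort difference within diestrus. No simulation is given for the other steps.

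Named genes were, per family, the 3 with the smallest FDR over the WT and over the KO stages, and the 5 called members with the largest change per direction and contrast, and values by mouse are for the smallest FDRs over stages and for genotype and for the relations. Others named beside a family were chosen after their values were seen. The channel genes and all lists were chosen with earlier results of these data known. 1 further Kcn gene, and single values of some genes that are counted, are not reported here. Positions are from GENCODE on GRCm38.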

Additional observations from a re-analysis of the deposited data

Results flagged for a closer look

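Among the 18 channel genes with values by mouse, 180 groups of 4 to 7 libraries were checked for a single library far from the rest by Dixon's gap ratio. Such a library was found in 9 groups. Chance gives about 1 in 20, so that the number found is about that of chance. KO diestrus mouse 7_1, the oldest of that group at 23.43 weeks, had 5.10 log2 CPM of Kcnk2 against 5.25 to 5.32 in the other 5. In KO metestrus, mouse 7_2, with low nuclear-retained RNA, had 2.11 of Kcnt1 against 3.01 to 3.31, and mouse 11_1 had 2.89 of Kcnh3 against 3.58 to 3.77. WT proestrus mouse 20_2, also low in these RNAs, had 1.37 of Kcnh2 against 2.02 to 2.22. WT metestrus mouse 3_3 had 5.60 of Kcnc1 against 5.84 to 5.87, and mouse 13_1 had 1.75 of Kcng4 against 2.27 to 2.37. In WT estrus, mouse 3_1 had 4.84 of Kcnb2 against 4.72 to 4.75, a gap of little size in a tight group. In KO proestrus, mouse 12_4 had 5.39 of Kcnj10 against 5.10 in the other 3, and mouse 12_5 had 0.30 of Kcnj8 against 0.97 to 1.02.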

How the results depend on the processing

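Counts of called channel genes are given for the WT stages, the KO stages, WT diestrus against estrus and proestrus, KO diestrus against estrus, proestrus and males, and KO females against males, in that order. The main counts were 34, 38, 31, 13, 32, 34, 32 and 6. They were 0, 0, 0, 0, 0, 9, 7 and 0 with edgeR, 1, 3, 1, 0, 2, 12, 7 and 1 with DESeq2, and 0, 2, 8, 0, 3, 11, 8 and 0 without quality weights. Gene sums of transcript estimates gave 21, 20, 20, 2, 16, 21, 15 and 2, and no filter on low counts gave 27, 17, 26, 2, 13, 19, 16 and 0. Age as a covariate gave 30, 34, 24, 7, 23, 30, 6 and 0. Diestrus mice of 14 weeks or more alone gave 1, 0, 0, 0, 0, 0, 0 and 3, the younger ones alone 43, 40, 47, 33, 39, 38, 39 and 6, and the nuclear RNA covariate 2, 0, 0, 0, 0, 2, 3 and 5. Mice of the Cnih3 line matings alone gave 28, 37, 4, 24, 31, 35, 33 and 6. With only mice under 14 weeks the counts were 6 in WT diestrus against proestrus, and 16 and 37 in KO diestrus against estrus and proestrus, where estrus is 1 mouse, assumed to vary like the other groups. DESeq2's size factors kept each count within 1.5 times. The share of all genes called moved too. Among the WT stages it was 31.5% in the main fit, 0.0247% with edgeR, 0.532% with DESeq2 and 0% without quality weights. It was 22.2% with age as a covariate, 2.33% with the older diestrus mice alone and 50.1% with the younger. Among the KO stages it was 36.7%, and 0.334% with edgeR, 3.54% with DESeq2 and 1.43% without quality weights. Age as a covariate gave 29.7% there, the older diestrus mice alone 0.0619% and the younger 40.2%. Where no share of all genes is given, here or below, the counts are no result about the channel genes alone. Counts at an unadjusted p under 0.05 outside the main fit are given for channel genes only. For WT diestrus against males, where 0 were called, the younger diestrus mice gave 32, the Cnih3 line matings 44 and mice under 14 weeks 1, and for KO against WT the Cnih3 line matings gave 4. For metestrus against diestrus the older diestrus mice alone took the counts from 13 in WT and 12 in KO mice to 0 and 0, and those of called partner genes from 10 and 12 against estrus and 13 against KO males to 0, 0 and 0. Of the 5 relations with markers, 4 passed, and 3 did without the 2 farthest libraries.

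With each mouse left out, the counts ran from 5 to 45, 26 to 40, 0 to 42, 0 to 30, 15 to 41, 23 to 37, 22 to 39 and 0 to 10 in the same order, from 0 to 33 for WT diestrus against males, 0 to 1 for the interaction and 0 to 3 for KO against WT. Among the WT stages 4.87% of all genes were called without WT diestrus mouse 569 and 49% without mouse 8_1. The labels number no replicates, but 26 mice share the first part of their number with another, which the labels do not explain. With that part as a replicate block, added after seeing the data, the correlation within blocks was -0.00248, the counts were 34, 38, 31, 13, 32, 34, 32 and 6 and no call or sign of the 83 differences below changed. WT diestrus shares 2 such numbers with WT estrus, and KO diestrus shares 0 with KO estrus.

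Of 83 differences of single named genes, 82 kept sign and call with only the younger diestrus mice and 2 with only the older. With only the older, the sign turned for Kcna1 (0.01), Kcnf1 (0), Kcnk13 (0.17) and Kcnt1 (0.06) in WT diestrus against estrus, for Kcnt1 (0.04) against WT proestrus, for Kcnb2 (0.07), Kcnd2 (0.02), Kcnh1 (0.20), Kcnma1 (0.10), Kcnt1 (0.09) and Kcnab2 (-0.12) in KO diestrus against estrus, for Kcnk9 (0.08) against KO proestrus and Kcnab2 (-0.07) against KO males. With the nuclear RNA covariate it turned for Kcna1 (0.01), Kcnk13 (0.26) and Kcnt1 (0.05) in WT, and for Kcna1 (0.04), Kcna2 (0.03), Kcnb2 (0.04), Kcnc1 (0.02), Kcnh1 (0.19), Kcnma1 (0.06) and Kcnt1 (0.05) in KO diestrus against estrus. With transcript sums it turned for Kcnab1 in KO diestrus against males (-0.72) and proestrus (-1.39), Kcnip3 against KO proestrus (-0.62), Kcnq5 against KO estrus (0.52) and Kcnt1 in WT (0.33), and with mice under 14 weeks, against that 1 estrus mouse, for Kcnip3 (-0.79) and Kcnk9 (0.26) in KO diestrus. Beyond the alternatives' own construction, the cause was not tested.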

Other observations

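Of the 20 channel genes below the level filter, 15 were over 1 CPM in 0 libraries and 5 in 1 to 5 libraries, and none was tested. Kcnj5, a partner of Kcnj3 in the atrial G protein-gated channel, was among the 15, while Kcnj3, Kcnj6 and Kcnj9, the neuronal partners, all passed the filter. Kcnq1, the cardiac and epithelial partner of Kcne genes, was also among the 15, while the RNA antisense to it, Kcnq1ot1, was measured. Kcne3 came closest to the filter, over 1 CPM in 5 libraries.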
